A study of Rattus norvegicus with 26 samples.

Results

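PCB 126, a coplanar chlorinated biphenyl, was compared at its highest doses with a set of low-exposure cultures in hepatocytes isolated from female Sprague Dawley rats and cultured. The 6 arrays of the high arm came from cells given 10, 1000 or 10000 nM PCB 126, with 1 array per dose in each of 2 cell pools. The 5 arrays of the baseline came from cells given the vehicle, 0.5% DMSO (1 array per pool), 0.01 pM TCDD (1 array per pool) or 10 pM PCB 126 (pool 2 only). TCDD is a chlorinated dibenzo-p-dioxin. All cells were exposed for 48 hours, and a pool held cells of 3 rats, so that each pool is 1 biological unit. The arrays were picked by chemical and dose from their titles, and they make up 11 of the 26 arrays of the study. Pool 1 gave 5 of them and pool 2 gave 6. The arrays carry 8740 probe sets for rat transcripts. Values are log2 expression, and a change is the high arm minus the baseline, fitted with the pool as a block and given with its standard error unless an SD is named.

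Coplanar biphenyls and dioxins bind the aryl hydrocarbon receptor (AhR), a cytosolic protein that moves to the nucleus when a ligand is bound. There it pairs with ARNT, and the pair binds short DNA elements with the core GCGTG near its target genes. In liver the best known targets are the CYP1 enzymes, which oxidise aromatic compounds, and a battery of enzymes that reduce or conjugate the products.

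The baseline arrays did not all read alike for Cyp1a1. Cyp1a1, the AhR target used most widely as a marker of exposure, stood at 3.45 and 3.28 in the vehicle arrays of pools 1 and 2 and at 3.33 in the 0.01 pM TCDD array of pool 1. It stood at 5.66 in the 0.01 pM TCDD array of pool 2 and at 7.91 in the 10 pM PCB 126 array. Both raised values came from pool 2 and lay far below the high arm, where Cyp1a1 ran from 12 to 12.63. Over all probe sets, 0 of 8740 were called (0%) between 0.01 pM TCDD and vehicle in limma's test at an adjusted p below 0.05, with 74 at an unadjusted p below 0.05. Between the 10 pM PCB 126 array and the rest of the baseline 4 were called (0.0458%). These 4, chosen here after their values were seen, were listed as Grhpr (0.54), Ptms (0.41), Crybb2 (0.44) and Gadd45a (-1.95), and 0 of them were called when arrays were centred on their medians. Cyp1a1 differed by 3.88 ± 0.95 in that test and did not pass (limma, adjusted p = 1, a single array against 4).

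Hepatocyte markers were high in both arms. The mean level of 11 measured hepatocyte markers was 9.98 to 10.28 over the baseline arrays and 9.80 to 10.24 over the high arrays, and albumin (Alb) averaged 14.30 and 14.09. Of these 11 markers Fgb and Tat were called higher and Cyp2e1, Cps1 and Ttr lower, which is 45.5% against 3.59% of all genes. Of other liver cells, 1 marker each read as follows in the baseline and the high arm: Pecam1 of endothelium 3.07 and 3.08, Clec4f of Kupffer cells 3.35 and 3.34, Des of stellate cells 1.68 and 1.67, and Krt19 of bile duct cells 2.86 and 2.86. Other members of those lists read higher, such as Lyz2 (8.5 and 7.46), Tagln (10.95 and 8.05) and Acta2 (5.78 and 5.56). The mean level of the endothelial list was 2.9 to 3.4 over the baseline arrays and 2.83 to 3.34 over the high arrays, and that of the bile duct list, which holds keratins that hepatocytes also express, 5.58 to 5.95 and 5.5 to 5.81. The first principal component of the 11 arrays held 55.7% of the variance and ordered them by pool, except that the 10000 nM array of pool 2 lay between the pools. The second held 24.7% and separated the arms, from -30.3 to -11.2 in the baseline and from 12.4 to 17.8 in the high arm.

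Between the arms 312 probe sets were called at an adjusted p below 0.05 (3.57% of 8740), 146 higher (1.67%) and 166 lower (1.9%) in the high arm, and 981 had an unadjusted p below 0.05. On 236 probe sets (2.7%) all high arrays lay above, or all below, every baseline array. With each gene represented by its brightest probe set, 170 of 4736 genes were called (3.59%), 75 higher (1.58%) and 95 lower (2.01%). All 170 changed in the same direction within each pool, which in part follows from the fit, since both pools enter it. A change of at least 1 log2 was seen in 36 of the genes that rose and 37 of those that fell. In 97 of the 170 called genes all high arrays lay on 1 side of all baseline arrays, against 125 of all 4736 genes (2.64%). That contrast too follows in part from the choice, since the genes were called on the same arrays. Without the pool block 135 probe sets were called, 79 higher and 56 lower, and against vehicle alone 160 were called, 94 higher and 66 lower. Without the 10 pM PCB 126 array and the 10000 nM array of pool 2, 259 probe sets and 146 genes were called, 74 genes higher and 72 lower, of which 127 were also called with all 11 arrays.

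**Figure D1:**
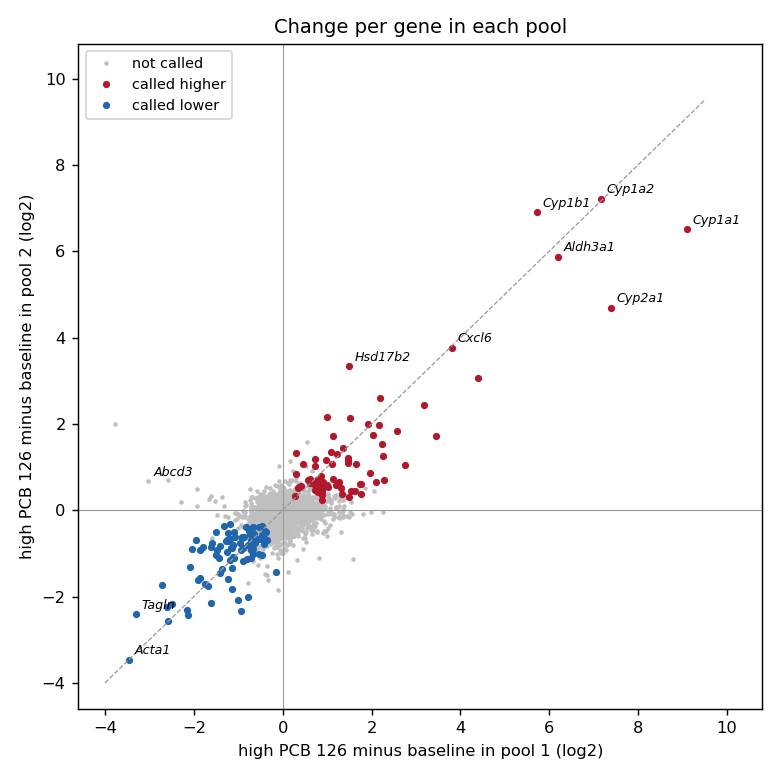
Change between the arms in pool 1 (x axis) and pool 2 (y axis), both in log2, for 4736 genes; red points were called higher, blue points lower and grey points not called, and the dashed line marks equal change. The CYP1 genes, Aldh3a1 and Cyp2a1 lie at the upper right, Cyp1a1 (9.10 and 6.51) and Cyp2a1 (7.39 and 4.70) to the right of the line, and Acta1 (-3.46 in both pools) at the lower left.

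The CYP1 genes had the largest rises. Cyp1a1 read 12.63, 12.41 and 12.43 in pool 1 and 12, 12.30 and 12.05 in pool 2 at 10, 1000 and 10000 nM. The groups did not overlap, but the baseline spread of 2.04 (SD, n = 5) was wide, and the change was 7.66 ± 0.83 (limma, adjusted p = 0.000984). Against vehicle alone it was 8.94 ± 0.17, within pool 1 alone 9.10 ± 0.23, and within pool 2 alone 6.51 ± 1.31, where it did not pass (adjusted p = 0.138 in limma).

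Cyp1a2, which metabolises aromatic amines in the liver, gave a tighter separation. Its baseline arrays read 3.54, 3.39, 3.85, 4.05 and 4.14 in the order vehicle of pools 1 and 2, TCDD of pools 1 and 2, and 10 pM PCB 126. In the high arm it read 10.75, 10.65 and 11.16 in pool 1 and 10.95, 11.37 and 10.90 in pool 2. The SD was 0.32 in the baseline (n = 5) and 0.27 in the high arm (n = 6), and the change was 7.19 ± 0.18 (limma, adjusted p = 1.42e-13).

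Cyp1b1, which oxidises oestradiol and polycyclic hydrocarbons, read 4.66, 3.70, 4.63, 3.61 and 3.78 in the baseline, in the same order. In the high arm it read 10.51, 10.82 and 9.77 in pool 1 and 10.75, 10.91 and 10.15 in pool 2. The change was 6.38 ± 0.25 (limma, adjusted p = 6.35e-11), and in both pools the lowest of the high readings was that of the 10000 nM array. All 4 probe sets of Cyp1b1 were called higher, by 4.22 to 7.15. On 1 of them, a dimmer one, the rise was smaller in pool 2 than in pool 1 by 2.53 (limma, adjusted p = 0.0145).

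Aldh3a1, an aldehyde dehydrogenase that is nearly silent in normal liver, read 2.30, 2.45, 2.21, 3.21 and 2.44 in the baseline. It read 8.58, 8.44 and 8.32 in the high arrays of pool 1 and 8.29, 8.82 and 8.61 in those of pool 2. No high array overlapped the baseline, whose highest array was 0.01 pM TCDD of pool 2. The change was 6.02 ± 0.17 (limma, adjusted p = 4.49e-13).

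Nqo1, a quinone reductase shared by AhR and NRF2 as a target, started from a higher reading. Its baseline arrays read 7.05, 7.70, 7.08, 8.25 and 7.94, and its high arrays 10.66, 10.02 and 10.07 in pool 1 and 10.43, 10.66 and 10.13 in pool 2. The change was 2.78 ± 0.18 (limma, adjusted p = 4.49e-08) with no overlap. The other 3 battery members with a probe set of their own did not pass: Ugdh, which makes UDP-glucuronate, differed by 0.51 (adjusted p = 0.102), Nfe2l2, which encodes NRF2, by 0.51 (0.284) and the glutathione transferase Gsta1 by 0.14 (0.951). Of 13 battery genes 8 were measured, 5 rose and 0 fell (62.5% called, against 3.59% of all genes). Their median change was 4.40 against -0.03 over all genes. The same 5 were called with arrays centred on their medians, after quantile normalization and against vehicle alone.

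**Figure D2:**
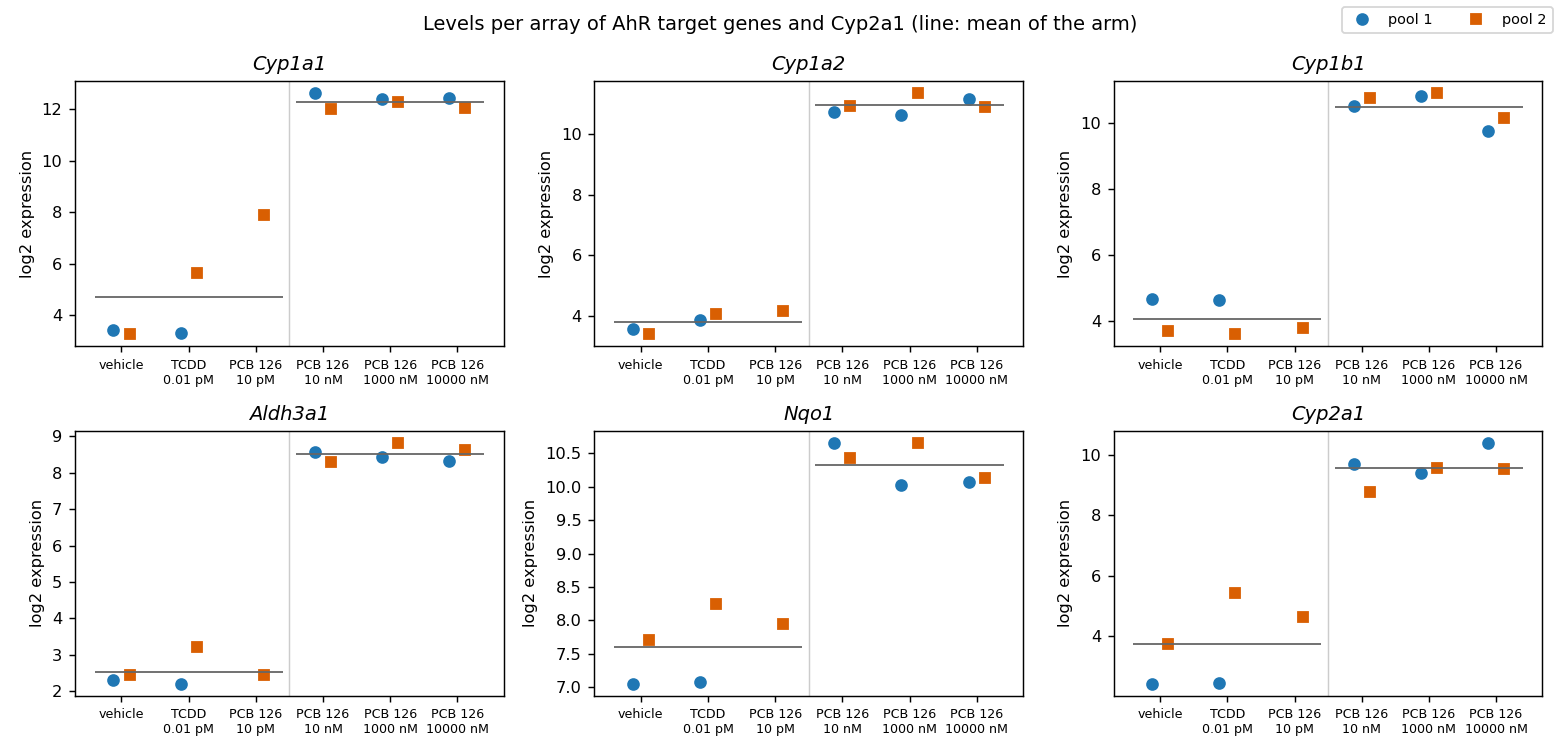
log2 expression of 5 AhR battery genes and Cyp2a1 in each of the 11 arrays, by treatment (x axis); circles are pool 1, squares pool 2, and horizontal lines the mean of each arm. The high arrays sit apart from the baseline for all 6 genes, and for Cyp1a1 the 0.01 pM TCDD and 10 pM PCB 126 arrays of pool 2 stand at 5.66 and 7.91, above the other baseline arrays.

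The receptor's own gene was called higher on 2 of its 4 probe sets. On the probe set chosen by the rule for genes Ahr read 5.0, 3.89, 4.96, 4.53 and 4.55 in the baseline, and 5.98, 5.86 and 5.79 in pool 1 and 4.59, 4.86 and 4.85 in pool 2 in the high arm. The arms overlapped across pools but not within a pool, and the change was 0.64 ± 0.15 (limma, adjusted p = 0.0232). It did not pass with arrays centred on their medians (0.0658), nor without the block (0.55). Another probe set of Ahr rose by 1.69 ± 0.37 (limma, adjusted p = 0.0495), and the other two differed by 0.02 and -0.02 and did not pass. Its partner Arnt differed by -0.02, Hif1a by -0.04, the chaperone Hsp90ab1 by -0.23, Esr1 by -0.04 and the coactivator Ncoa1 by -0.06, and 0 of these 5 passed.

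The promoter windows of Cyp1b1 and Nqo1, which rose, are printed because they hold the AhR core. They are RefSeq sequences of build GRCr8, from 250 bases before to 50 bases after the gene's start, 5′ to 3′ on the gene's strand. Capitals mark GCGTG, written as CACGC where it lies on the other strand. The window of Cyp1b1 (chr6:21094315-21094614, plus strand) holds 2 cores, which begin 81 and 20 bases before the start, and that of Nqo1 (chr19:52220218-52220517, minus strand) holds 1, which begins 10 bases before it.
Cyp1b1: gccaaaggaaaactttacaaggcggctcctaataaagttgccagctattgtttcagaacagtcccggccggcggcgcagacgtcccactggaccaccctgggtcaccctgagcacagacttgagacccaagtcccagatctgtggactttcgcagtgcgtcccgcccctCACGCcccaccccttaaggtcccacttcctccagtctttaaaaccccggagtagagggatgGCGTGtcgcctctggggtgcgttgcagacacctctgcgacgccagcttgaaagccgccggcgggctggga
Nqo1: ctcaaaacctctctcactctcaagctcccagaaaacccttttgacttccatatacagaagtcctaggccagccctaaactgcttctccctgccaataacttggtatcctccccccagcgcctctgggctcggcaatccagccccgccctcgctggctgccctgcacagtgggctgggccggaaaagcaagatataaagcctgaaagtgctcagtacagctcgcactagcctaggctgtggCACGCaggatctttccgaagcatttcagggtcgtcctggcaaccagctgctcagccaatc
The window of Cyp1a2 (chr8:66978100-66978399, minus strand) holds 0 cores, and so do those of Cyp2a1, Cxcl6 and Cyp3a23-3a1, which rose more than Nqo1. Of the 15 genes with the largest rises 11 had a window in the table, and 5 of these 11 held the core. Of the 15 with the largest falls 9 had a window, and 2 of these 9 held the core, Aopep with 3 and Rnase4 with 1. The core was found in 28 of 59 windows of all genes called higher (47.5%) and in 25 of 75 of those called lower (33.3%). The core is short and frequent: 43.4% of 3879 windows of measured genes and 30.9% of all 27457 windows hold it. A match is a description of the letters in this window.

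Among the P450 enzymes of the normal liver, 3 of 25 measured genes rose and 5 fell, with a median of -0.09. That is 32% called, against 3.59% of all genes. Cyp2a1, a steroid hydroxylase, rose most, from 2.44, 3.74, 2.45, 5.42 and 4.63 in the baseline to 9.70, 9.41 and 10.40 in pool 1 and 8.77, 9.57 and 9.54 in pool 2. Its change was 5.89 ± 0.54 (limma, adjusted p = 0.000169), with no overlap and again with raised low-dose arrays in pool 2. Cyp2a2 rose by 1.86 ± 0.19 and Cyp2f4 by 1.41 ± 0.18. The 2 Cyp2a genes are close relatives, and how far their probes tell them apart was not tested.

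The female-typical steroid hydroxylase Cyp2c12 fell most in this group. It read 8.93, 9.56, 8.69, 9.90 and 9.07 in the baseline, and 5.39, 6.98 and 6.33 in pool 1 and 7.08, 7.21 and 6.53 in pool 2 in the high arm. The arms did not overlap, and the change was -2.57 ± 0.25 (limma, adjusted p = 9.29e-06). Cyp2c7, a retinoid and steroid hydroxylase, fell by 2.41 ± 0.20 and Cyp2c6v1 by 1.72 ± 0.25. Cyp2e1, which oxidises ethanol and small solvents, fell by 1.60 ± 0.21, and Cyp2d2 by 1.53 ± 0.20. The count of 3 rises and 5 falls was the same under median centring, quantile normalization, vehicle alone and without the 2 arrays named above.

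In a list of genes assigned to other xenobiotic receptors, CAR and PXR, calls went both ways, with 2 of 17 higher and 3 lower. That is 29.4% called, against 3.59% of all genes. Whether these receptors induce each member was not tested. Cyp3a23-3a1, the rat CYP3A form that PXR ligands induce, read 4.77, 5.69, 4.50, 7.27 and 5.13 in the baseline. In the high arm it read 8.59, 8.11 and 10.43 in pool 1 and 8.73, 9.03 and 9.55 in pool 2. Its change was 3.66 ± 0.53 (limma, adjusted p = 0.00364), and within a pool alone it did not pass (0.0701 in pool 1, 0.163 in pool 2). The bile-acid and drug exporter Abcc2 rose by 0.87 ± 0.15. The retinal dehydrogenase Aldh1a1 fell by 1.73 ± 0.24, Cyp2b3 by 1.44 ± 0.22 and the epoxide hydrolase Ephx1 by 0.45 ± 0.11. Cyp2b2 differed by -0.39 and did not pass (adjusted p = 0.101).

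Of the conjugating enzymes with a probe set of their own, 0 of 16 rose and 3 fell (18.8% called, against 3.59% of all genes). The same counts held under each of the 4 alternatives named for the P450 genes. Sult1b1, a sulfotransferase of phenols and thyroid hormone, fell by 2.25 ± 0.38, the glucuronosyltransferase listed as Ugt2b by 1.74 ± 0.22 and the phenol sulfotransferase Sult1a1 by 0.79 ± 0.13. The UGT1A family shares exons, and 12 probe sets list several Ugt1a genes at once, so none could be given to 1 gene. They did not move together: 4 rose, by 2.36, 2.75, 3.47 and 3.69, and 3 fell, by 0.30, 1.59 and 3.30. The remaining 5 did not pass, with values from -0.25 to -0.02. The probe set that rose most went from 7.68 ± 0.79 (SD, n = 5) to 11.33 ± 0.21 (SD, n = 6), and the one that fell most from 11.56 ± 0.33 to 8.25 ± 0.63, both with no overlap between the arms.

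Of 34 glutathione and NRF2 genes 3 rose and 2 fell (14.7% called, against 3.59% of all genes), with a median of -0.05. Mitochondrial superoxide dismutase Sod2 rose by 1.45 ± 0.21, Gstp1 by 0.93 ± 0.17 and Gsta4, which conjugates lipid peroxidation products, by 0.89 ± 0.14. The membrane-bound Mgst3 fell by 1.10 ± 0.22 and the aldehyde reductase Akr7a3 by 0.77 ± 0.18. Hmox1, Gclc, Gclm and Txnrd1, standard NRF2 targets, differed by 0.21, -0.27, -0.02 and -0.26, and 0 of these 4 passed. Against vehicle alone and under median centring the 3 rises were called and 0 falls. A probe set that lists both Gsta5 and Gsta2, and so cannot be given to 1 gene, is not among the 34: it averaged 8.6 in the baseline and 12.32 in the high arm and rose by 3.83 ± 0.32 (limma, adjusted p = 4.64e-05).

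**Figure D3:**
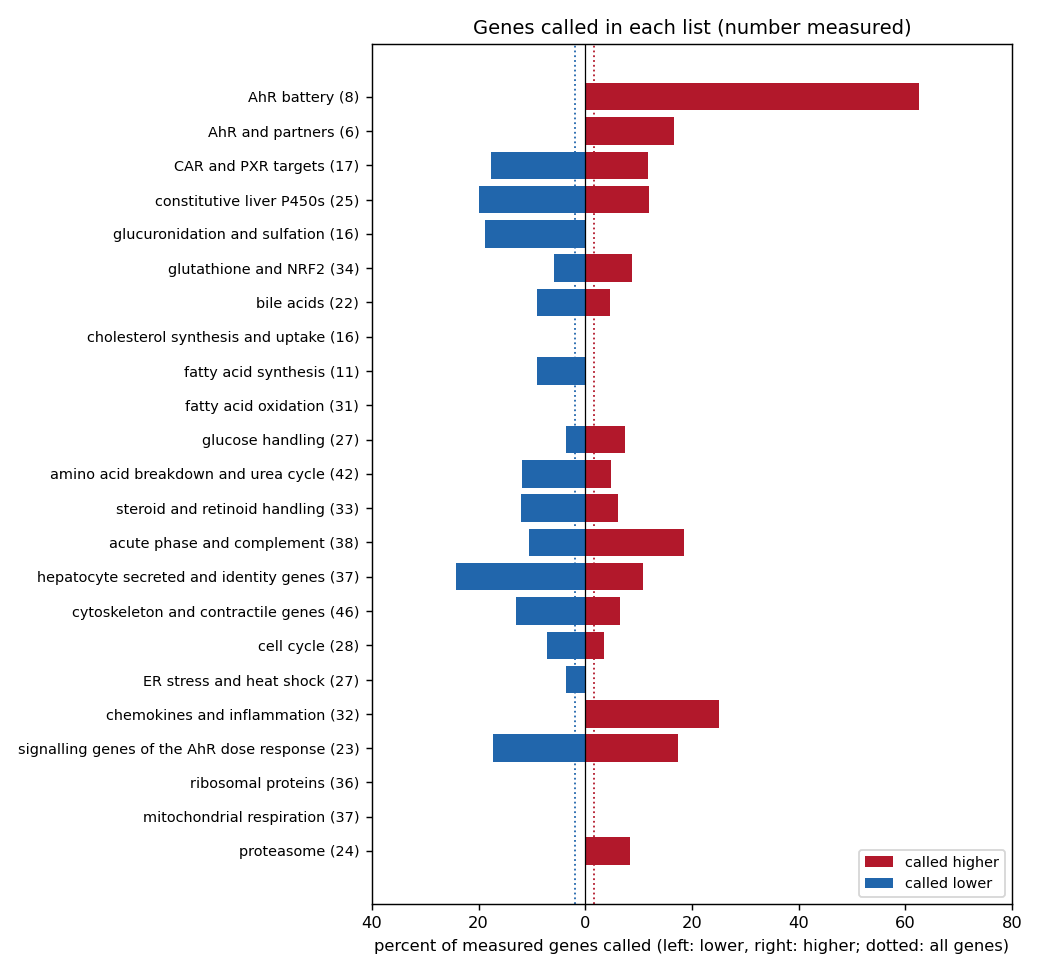
Percent of the measured genes of each list that were called higher (right, red) or lower (left, blue) in the high arm, with the number measured in brackets and dotted lines at the percent over all 4736 genes (1.58% higher, 2.01% lower). The AhR battery (5 of 8 higher) and the chemokine list (8 of 32 higher, 0 lower) extend only to the right, and the conjugation list (3 of 16 lower) only to the left. Probe sets that list several genes are left out, among them 12 of Ugt1a, of which 4 were called higher and 3 lower.

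Contractile and cytoskeletal genes included the largest falls: 6 of 46 fell and 3 rose, with a median of -0.08. That is 19.6% called, against 3.59% of all genes. Acta1, listed as skeletal muscle alpha-actin, read 10.16, 10.87, 10.37, 10.34 and 10.76 in the baseline, and 7.47, 7.42 and 5.53 in pool 1 and 7.49, 7.20 and 6.89 in pool 2 in the high arm. The arms did not overlap, and the lowest array was 10000 nM of pool 1. The change was -3.46 ± 0.31, equal in both pools (limma, adjusted p = 1.85e-05). Tagln, an actin-binding protein of smooth muscle and of cultured cells under tension, read 10.53, 11.09, 10.90, 10.95 and 11.28 in the baseline. It read 8.11, 7.96 and 6.15 in pool 1 and 8.78, 8.60 and 8.73 in pool 2 in the high arm, a change of -2.81 ± 0.33 (limma, adjusted p = 0.000379) with no overlap. Myl9, a myosin light chain, fell by 2.30 ± 0.23, and tropomyosin Tpm1 by 0.44 ± 0.10. S100a10 fell by 0.89 ± 0.17 and Anxa1 by 0.86 ± 0.16, whereas Anxa5 rose by 0.93 ± 0.15, the tetraspanin Cd9 by 1.10 ± 0.20 and the hyaluronan receptor Cd44 by 0.64 ± 0.16.

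The promoter window of Acta1 (chr19:68784145-68784444, minus strand) is shown because this gene fell most. Capitals mark a CArG box, the element bound by serum response factor in contractile genes, which was searched for after the values were seen and begins 94 bases before the start.
Acta1: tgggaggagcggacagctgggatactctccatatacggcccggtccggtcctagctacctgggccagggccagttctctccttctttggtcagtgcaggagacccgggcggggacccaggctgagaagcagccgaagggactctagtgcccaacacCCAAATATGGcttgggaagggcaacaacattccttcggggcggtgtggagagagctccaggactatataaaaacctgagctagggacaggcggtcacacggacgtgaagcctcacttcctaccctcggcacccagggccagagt
CArG boxes were found in 3 of 75 windows of genes called lower (4%), 3 of 59 of genes called higher (5.08%) and 1.78% of those of measured genes. Tagln and Myl9 had no entry in the sequence table.

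Tagln and the collagen cross-linking enzyme Lox (-1.72 ± 0.22) are also markers of stellate cells and fibroblasts, of which 2 of 19 measured markers fell and 0 rose. The mean level of these 19 was 4.90 to 5.23 over the baseline arrays and 4.56 to 4.90 over the high arrays. Of the list, Col1a1 (3.68 and 3.64), Col3a1 (4.36 and 4.42) and Acta2 (5.78 and 5.56) did not pass. Vim (6.61 and 6.66), which is not in the list, did not pass either. Of 11 macrophage markers Lyz2 alone was called, with a fall of 0.99 ± 0.13, and their mean level was 3.91 to 4.31 and 3.79 to 4.19 in the arms. Of 9 endothelial and 12 bile duct markers 0 were called, with 0 and 3 at an unadjusted p below 0.05 in limma. The share called over all genes was 3.59%. In a culture, fewer cells of a type and less RNA per cell cannot be told apart, and the part of other cell types in the falls was not tested.

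**Figure D4:**
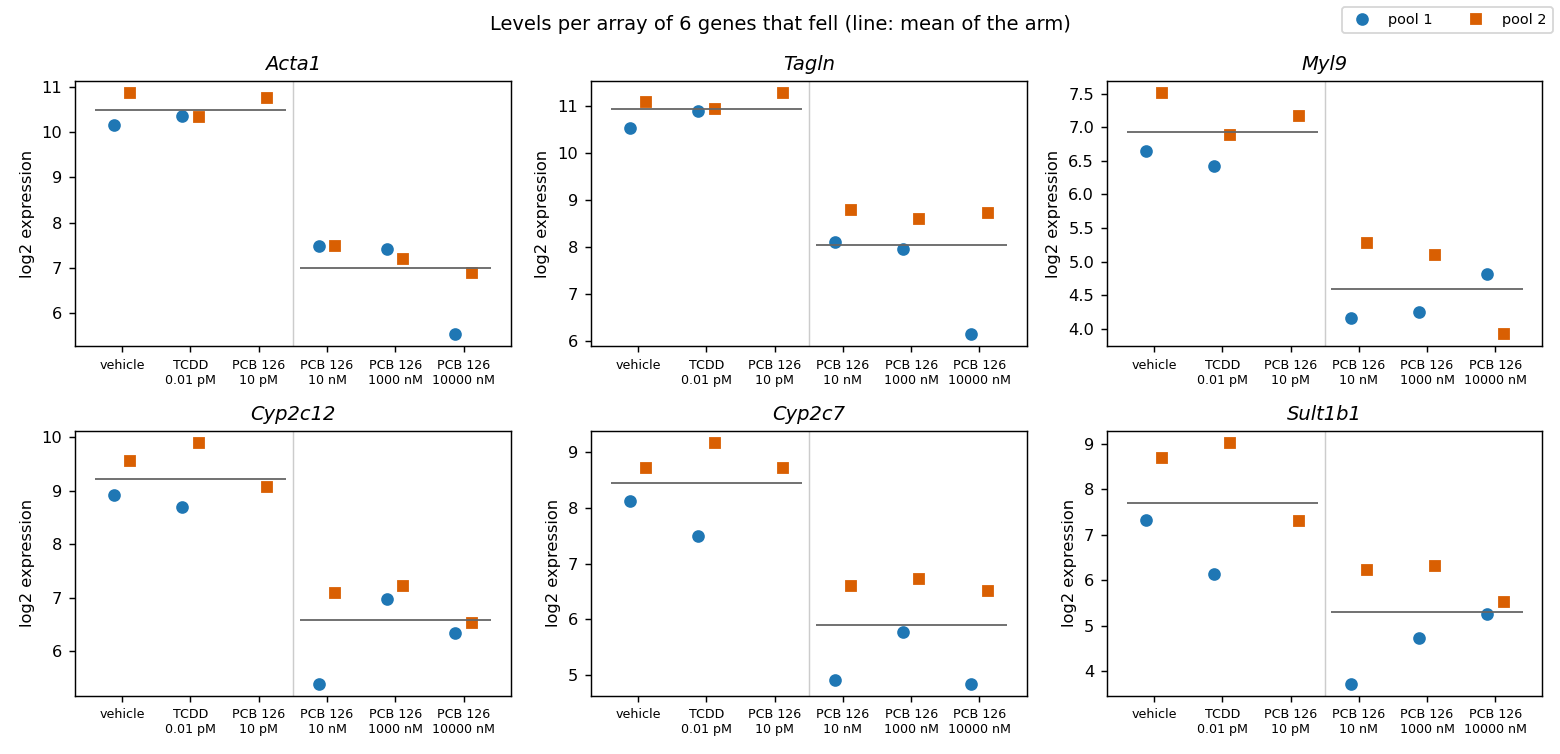
log2 expression of 6 genes that fell in each of the 11 arrays, by treatment (x axis); circles are pool 1, squares pool 2, and horizontal lines the mean of each arm. For Acta1, Tagln, Myl9, Cyp2c12 and Cyp2c7 the high arrays all lie below the baseline arrays, and for Sult1b1 the pools differ so far in level that the arms overlap.

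Of 38 acute phase and complement genes 7 rose and 4 fell (28.9% called, against 3.59% of all genes), with a median of 0.22. The protease inhibitors of the alpha-macroglobulin family fell: Mug1 by 2.32 ± 0.31 and A2m by 2.17 ± 0.28. The serpin Serpina3c fell by 1.91 ± 0.25 and the pentraxin Apcs by 1.26 ± 0.28. A2m read 7.37, 9.06, 7.62, 8.21 and 8.62 in the baseline and 5.55, 3.97, 4.80, 7.19, 6.73 and 6.77 in the high arm. These arms did not overlap, whereas those of Mug1 and Serpina3c overlapped across pools.

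The transcription factor Cebpb rose by 1.70 ± 0.19, from 6.63, 7.71, 6.31, 7.66 and 7.67 in the baseline to 8.43, 8.92 and 8.84 in pool 1 and 9.02, 8.88 and 8.90 in pool 2, without overlap. The lipopolysaccharide-binding protein Lbp rose by 1.32 ± 0.21 and the iron-siderophore binder Lcn2 by 0.91 ± 0.09. Serping1 rose by 0.64, C9 by 0.60, and the fibrinogen chains Fgg and Fgb by 0.59 and 0.49. Against vehicle alone 3 genes of this list were called higher and 2 lower.

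Chemokine and inflammation genes were called in 1 direction: 8 of 32 rose (25%, against 1.58% of all genes) and 0 fell, with a median of 0.09. Cxcl6, a neutrophil-attracting chemokine, read 2.85, 1.5, 2.77, 2.13 and 2.42 in the baseline, and 7.25, 7.16 and 5.45 in pool 1 and 6.06, 5.90 and 5.4 in pool 2 in the high arm. The change was 3.79 ± 0.31 (limma, adjusted p = 3.24e-05), with no overlap and the lowest high reading of each pool at 10000 nM. Cx3cl1 rose by 1.84 ± 0.22, the monocyte attractant Ccl2 by 1.64 ± 0.22 and Ccl20 by 1.26 ± 0.18. Psmb9, an interferon-induced proteasome subunit, rose by 0.85, Cxcl10 by 0.82, the NF-kB inhibitor Nfkbia by 0.63 and the TNF receptor Tnfrsf1a by 0.58. Under median centring, and after quantile normalization, 6 of the 32 were called higher and 0 lower, and against vehicle alone 4 and 0.

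Secreted products of hepatocytes divided, with 9 of 37 lower, 4 higher (35.1% called, against 3.59% of all genes) and a median of -0.10. Apolipoproteins fell by 0.84 (Apoa2), 0.84 (Apoc1), 0.63 (Apoc3) and 0.40 (Apoe), while Apob rose by 1.24 ± 0.24. Paraoxonase Pon1, which circulates on HDL, rose by 1.87 ± 0.14, from 8.61 to 9.12 over the baseline arrays to 10.48 to 11 over the high arrays. The retinol carrier Rbp4 rose by 0.68 ± 0.11, whereas its partner in plasma, transthyretin (Ttr), fell by 0.59 ± 0.12. Vtn fell by 0.94, hepatic lipase Lipc by 0.89, Ambp by 0.71 and Asgr2 by 0.58, and Lcat rose by 0.59. Of the 9 falls, 4 were called under median centring and 2 against vehicle alone, where 3 rises were called in both.

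Steroid and retinoid genes were called lower in 4 of 33 and higher in 2 (18.2% called, against 3.59% of all genes). Hsd17b2, which inactivates oestradiol and testosterone, read 3.39, 3.5, 3.43, 3.36 and 3.33 in the baseline, and 4.69, 4.69 and 5.32 in pool 1 and 6.80, 7.08 and 6.31 in pool 2 in the high arm. The arms did not overlap, and the change was 2.52 ± 0.32 (limma, adjusted p = 0.000731). The rise was 1.49 in pool 1 and 3.34 in pool 2, a difference that passed its own test (1.84, adjusted p = 0.017 in limma). Aldh1a1, Akr1d1, Ttr and the vitamin E transfer protein Ttpa (-0.78 ± 0.16) made up the falls.

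Genes of amino acid breakdown and the urea cycle fell in 5 of 42 and rose in 2 (16.7% called, against 3.59% of all genes). Kynu, of tryptophan breakdown, fell by 1.44, Upb1, of pyrimidine breakdown, by 1.27, urate oxidase Uox by 0.94, the first enzyme of the urea cycle Cps1 by 0.93 and Glud1 by 0.80. The rises were Hal, which deaminates histidine (1.97 ± 0.16), and tyrosine aminotransferase Tat (1.30 ± 0.15). Hal read 3.17 to 4.22 over the baseline arrays and 5.02 to 6.26 over the high arrays.

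In glucose handling 2 of 27 genes rose and 1 fell, with the same count under median centring. Igfbp1, the hepatic binding protein of insulin-like growth factors, rose by 2.17 ± 0.19, from 6.61 to 8.59 over the baseline arrays to 9.5 to 10.54 over the high arrays. Aldoa rose by 0.63 ± 0.13, and the glucose-6-phosphate transporter Slc37a4 fell by 1.05 ± 0.14. Pck1 differed by -0.35 and Fbp1 by -0.40, and neither passed. In lipid metabolism Fasn fell by 0.76 ± 0.16, 1 of 11 synthesis genes. Of 31 fatty acid oxidation genes 0 were called (6 at an unadjusted p below 0.05 in limma), and of 16 cholesterol genes 0 (4 at an unadjusted p below 0.05). The share called over all genes was 3.59%, so few calls are to be expected in lists this small. Bile acid genes fell in 2 of 22, the uptake carrier Slc10a1 by 0.46 ± 0.11 and Akr1d1 by 0.83 ± 0.21, and Abcc2 rose, while Cyp7a1 differed by -0.02.

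Of 28 cell cycle genes 3 were called (10.7%). Cyclin D1 (Ccnd1) fell by 0.86 ± 0.21 and Jun by 0.99 ± 0.16, and the early response gene Egr1 rose by 0.97 ± 0.20. Against vehicle alone 0 of the 28 were called, and under median centring 0 higher and 1 lower. Egr1 was called on 1 of its 4 probe sets and rose by 1.62 in pool 1 and 0.45 in pool 2. Ccnd1 was called on 2 of its 5 probe sets and changed by -0.15 in pool 1 and -1.42 in pool 2. Of 27 stress and heat shock genes Nupr1 alone was called (3.7%, near the 3.59% of all genes), with a fall of 1.34 ± 0.22. Of 24 proteasome genes 2 rose (8.33%), Psmb9 and the interferon-inducible activator subunit Psme2 (0.47 ± 0.12). Against vehicle alone 0 of the 24 were called. Of 36 ribosomal and 37 mitochondrial respiration genes 0 were called, with 4 and 3 at an unadjusted p below 0.05 in limma. At the share of 3.59% over all genes, few calls are to be expected in lists of this size.

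A list of 23 signalling genes had been picked in an earlier look at these arrays, so its count of 4 rises and 4 falls is not independent evidence. The share called was 34.8%, against 3.59% of all genes. Pla2r1, a phospholipase A2 receptor, rose by 2.5 ± 0.43, the phosphate transporter Slc17a1 by 2.41 ± 0.26, the cAMP phosphodiesterase Pde4b by 2.06 ± 0.18 and the growth factor Nrg1 by 1.32 ± 0.17. The ribonuclease Rnase4 fell by 1.66 ± 0.26, the sulfate transporter Slc26a1 by 1.46 ± 0.28, Tsc22d1 by 1.17 ± 0.18 and the receptor Egfr by 0.59 ± 0.16. Pla2r1 read 3.01, 2.29, 3.07, 2.43 and 2.46 in the baseline, and 7.16, 6.52 and 5.81 in pool 1 and 3.83, 5.04 and 3.5 in pool 2 in the high arm. Its arms did not overlap, with the lowest high readings in pool 2.

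Across the 3 high doses few differences were called. An F test among 10, 1000 and 10000 nM called 7 of 8740 probe sets (0.0801%), and 668 had an unadjusted p below 0.05 in limma. It called 0 under median centring, under a filter on low values or without the block. Gip (1.18 at 10000 over 10 nM), Ifitm10 (0.74) and Wdfy3 (-1.35) were among them, with a second, dimmer probe set of Cyp3a23-3a1 (1.78) and probe sets of Trib3 (1.30) and Fbxo38 (-1.24). Gip read 3.69 and 3.45 at 10 nM and 5.09 and 4.40 at 10000 nM, near the median of all values at the lower dose. For the CYP1 genes the 10000 nM arrays differed from the 10 nM arrays by -0.07 (95% interval -2.28 to 2.14) in Cyp1a1, 0.18 (-0.44 to 0.80) in Cyp1a2 and -0.67 (-1.37 to 0.02) in Cyp1b1. Cxcl6 was lower at 10000 than at 10 nM by 1.22 (-1.78 to -0.67, adjusted p = 0.0727 in limma) and Acta1 by 1.27 (-1.93 to -0.60, adjusted p = 0.137), in neither case past the threshold.

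At the matched dose of 10 nM, PCB 126 and TCDD could be set side by side, with 1 array per pool each, in 1 pair of doses. PCB 126 is a biphenyl and TCDD a dibenzo-p-dioxin. Of 8740 probe sets 0 were called (0%) between them, with 113 at an unadjusted p below 0.05 in limma. PCB 126 minus TCDD was -0.14 in Cyp1a1 (95% interval -1.86 to 1.58), 0.39 in Cyp1a2 (-0.40 to 1.18), -0.51 in Cyp1b1 (-1.26 to 0.24), 0.42 in Aldh3a1 (-0.24 to 1.09) and -0.15 in Nqo1 (-0.90 to 0.60). It was 0.37 in Acta1 (-1.44 to 2.19) and 0.61 in Cyp2c12 (-1.18 to 2.41). The intervals are wide, and a miss of the threshold does not show that the compounds act alike.

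PCB 126 arrays that the comparison did not use were at 1 pM, below the 10 pM of the baseline, and at 100 pM and 1 nM, between the arms. At 100 pM and 1 nM the changes were partial. For the 73 genes called with at least 1 log2, each array's change from the baseline of its pool was set against the change of the high arm in that pool. The 73 were picked against this same baseline, so agreement in direction in part follows from the pick, and no share over all genes is set beside it. The baseline of pool 2 holds the 10 pM PCB 126 array and that of pool 1 does not. At 1 nM (pool 2) the median was 65.8% for the 36 genes that rose and 68.2% for the 37 that fell, and 35 of the 36 and 36 of the 37 went the same way as in the high arm. At 100 pM it was 44.6% and 17.9% in pool 1 and 23.6% and 24.3% in pool 2. At 1 pM it was 14.4% and -8.84% in pool 1 but 37.5% and 26.5% in pool 2. In pool 2 the library labelled 1 pM thus lay above that labelled 100 pM. Cyp1b1 read 9.14 at 1 pM, 3.78 at 10 pM, 3.81 at 100 pM and 9.0 at 1 nM in that pool, and Aldh3a1 6.45, 2.44, 3.01 and 6.27. In pool 1 Cyp1b1 read 4.16 at 1 pM and 4.27 at 100 pM. The levels of pool 2 therefore did not follow the order of the labelled doses, and the 10 pM array that belongs to the baseline was the lowest of these 4 for both genes. Whether the dose labels of these arrays are right was not tested. Without the baseline's array labelled 10 pM, 254 probe sets were called between the arms, 125 higher and 129 lower.

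**Figure D5:**
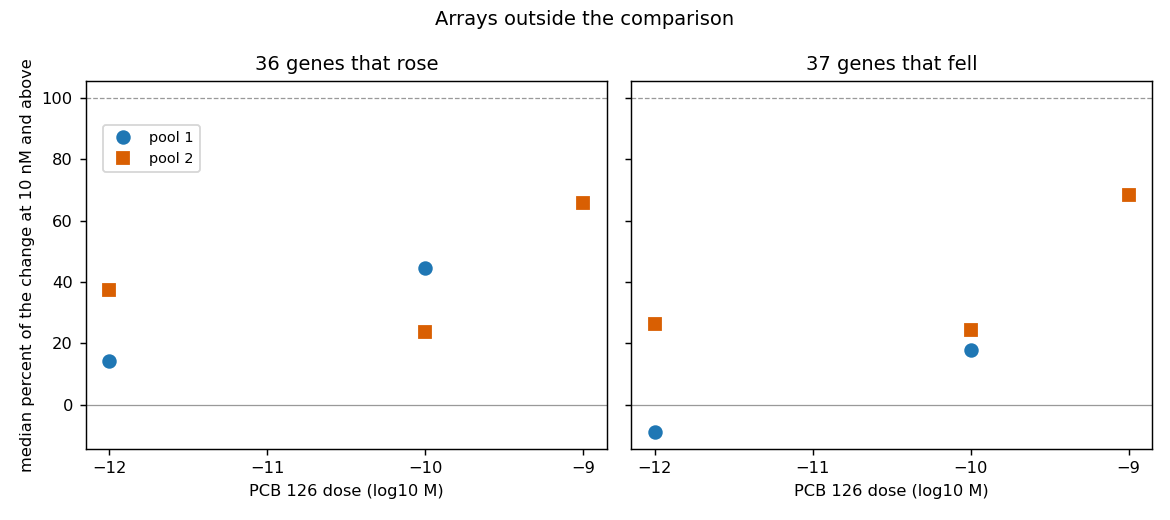
Median change of the 36 genes that rose (left) and the 37 that fell (right) on the PCB 126 arrays outside the comparison, as percent of the change of the high arm in the same pool (y axis), against the dose in log10 M (x axis); circles are pool 1 and squares pool 2, 1 array per point. The 1 nM array of pool 2 sits at 65.8% and 68.2%, and the 1 pM array of pool 2 (37.5% and 26.5%) sits above its 100 pM array (23.6% and 24.3%).

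The pools differed in the size of the change for 30 probe sets (0.343% of 8740), 11 with the higher signed change in pool 2 and 19 with the higher in pool 1. Acsm2, an acyl-CoA synthetase, fell by 1.84 in pool 2 and differed by -0.11 in pool 1, where its baseline arrays already read 3.88 and 3.92. Nr1h2, the receptor LXR beta, read 3.62 and 3.28 in the baseline of pool 1 and 5.74, 5.91 and 5.48 in its high arm, and between 5.53 and 6.46 in all 6 arrays of pool 2. Abcd3, a peroxisomal transporter, read 10.49 and 10.04 in the baseline of pool 1 and 7.81, 6.90 and 7.01 in its high arm, against 7.86 to 9.65 in pool 2. Under median centring 15 probe sets were called.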

How the data were processed

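Primary hepatocytes were measured on 1 type of rat oligonucleotide array. The values are the authors' deposited log2 expression values, made with GCRMA 2.8.0, with RMA also named, per the submitters' processing notes, with settings not given in the sources used here. GCRMA draws dim values together, so a small spread among dim readings can come from the processing. How far it alters the size of changes from near background was not tested. The number of arrays limits the precision. All 26 columns belonged to a sample, with 0 left over.

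Control probe sets (59) were left out and 8740 tested on the log2 values with limma 3.58.1 in R 4.3.3 (lmFit, then eBayes with trend and robust), with the pool as a block and a Benjamini-Hochberg adjusted p below 0.05 over all 8740. The pool is the animals' source in the labels, and deviations of same-pool arrays from their group means correlated at r from 0.483 to 0.83 in 10 pairs. Nothing says that arrays of 1 pool came from separate cultures, so p-values reflect only the spread among these arrays. The F test of doses and the pool interaction were fitted on the same values. Residual degrees of freedom were 8 for the arms, 4 for its 6 dose groups and 6 with the TCDD arrays at 10 and 316 nM added for the matched dose. The fit was checked on simulated data.

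Of the probe sets 7006 have 1 gene symbol, 308 several and 1426 none in the platform annotation. The Entrez identifiers of 6985 matched RefSeq and 0 symbols were updated. For each gene the probe set of the highest mean over the 11 arrays was used, and 0 called genes had another probe set called the opposite way. Other probe sets of a called gene did not always pass. Hal, Slc17a1 and Glud1 were called on 1 of 3, A2m on 2 of 6, Nrg1 on 3 of 7, and Nqo1 and Fasn on 1 of 2. Cyp1a2, Pon1 and Cyp2e1 were called on 3 of 3. Genes were named by a rule: the 15 with the largest change in each direction among those called with 1 sign in both pools, every measured gene of the AhR battery and partner lists, up to 4 called members with the smallest p of each other list, and the 6 with the smallest p in each other test. This gave 83 genes, 68 of them called. Other called list members are given by value. The members and the 28 lists were chosen with earlier results of these data known. Promoters were searched for GCGTG on both strands.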

Additional observations from a re-analysis of the deposited data

Results flagged for a closer look

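In 172 groups of 4 to 10 arrays, the arms of the 83 named genes and of 3 array measures (the median and the actin and Gapdh 3′ minus 5′ signals), the extreme array was checked against its neighbours, and chance marks about 1 in 20 such groups. Here 6 readings, on 5 arrays, stood far from the others of their arm. In the high arm the 10000 nM array of pool 1 was low for Acta1 (5.53, next 6.89) and Tagln (6.15, next 7.96), and the 10 nM array of pool 1 was low for Cebpb (8.43, next 8.84). In the baseline the 0.01 pM TCDD array of pool 2 was high for Aldh3a1 (3.21, next 2.45), the 0.01 pM TCDD array of pool 1 was low for Nfe2l2 (8.18, next 8.97), and the vehicle array of pool 1 was high for Cx3cl1 (6.44, next 5.90).

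For 9 named genes the change differed between the pools in limma's interaction test. Pool 2 minus pool 1 was 3.70 for Abcd3, 2.47 for Rps24 and 1.84 for Hsd17b2. It was -2.31 for Nr1h2, -1.73 for Acsm2, -1.69 for Ier3, -1.4 for Lox, -1.27 for Ccnd1 and -1.09 for Gstp1.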

How the results depend on the processing

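The 312 probe sets called between the arms became 190 with arrays centred on their medians, 135 with no replicate block, 160 against vehicle only, 110 with 10 nM as the only high dose, 153 in pool 1 alone and 149 with a change of at least 1 log2. Leaving out 1 array at a time gave 236 to 367. Of the 83 named genes none was called in the opposite direction under any of these. Estimates that did not pass could change sign, as for Abcd3 with -3.03 in pool 1 and 0.67 in pool 2. Of the 68 called, 60 were called under median centring, 46 without the block, 55 against vehicle only, 37 at 10 nM only, 32 in pool 1 alone and 56 in pool 2 alone. Akr1d1, Psme2, Ccnd1, Slc10a1 and Ahr were among the 22 lost without the block, and Cyp1a1 and Cyp2a1 among the 31 lost at 10 nM only (adjusted p = 0.103 and 0.0669 in limma). The 7 calls of the dose test became 0 under the filter on low values, under median centring and without the block, and 13 to 356 with 1 array left out, where a lone array of a dose is assumed to vary like the others. For TCDD at 0.01 pM against vehicle leaving out 1 array gave 9 to 126 calls. The 4 calls of PCB 126 at 10 pM became 0 under the filter, 0 under centring, 1 without the block and 7 to 35 with 1 array left out. The 30 calls of the pool test became 15 under centring and 12 to 82 with 1 array left out. The test at 10 nM against TCDD gave 1 to 6 with 1 array left out. The cause was not tested for any of these. The fit without the 10 pM array and the 10000 nM array of pool 2 was chosen after seeing the data.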

Other observations

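Of the 170 called genes 72 belonged to none of the lists, 28 higher and 44 lower. The genes given here were chosen after their values were seen. Ier3, an immediate early response gene, rose by 1.80 ± 0.27, the mitochondrial dicarboxylate carrier Slc25a10 by 1.40 ± 0.28, the inhibitory receptor Sirpa by 1.35 ± 0.28, the magnesium transporter Slc41a2 by 1.26 ± 0.15 and Cyba, a subunit of NADPH oxidase, by 1.13 ± 0.21. In these 5 genes all high arrays lay above all baseline arrays. Odc1, the first enzyme of polyamine synthesis, rose by 0.83 ± 0.22 with overlap.

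The aminopeptidase Aopep fell by 1.70 ± 0.19, the transcriptional regulator Cited2 by 1.41 ± 0.23, Ankrd1, a muscle ankyrin repeat protein, by 1.36 ± 0.20, the selenium carrier Selenop by 1.26 ± 0.22 and the serpin Serpinb9 by 1.17 ± 0.16, each without overlap. The sialyltransferase St6gal1 fell by 1.25 ± 0.19 and the mitochondrial transhydrogenase Nnt by 1.09 ± 0.27, both with arms that overlapped. Of the called probe sets 35 have no gene in the annotation and 21 list several.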
